A study of Mus musculus with 6 samples.

Results

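A set of 10 genes of mitochondrial fusion, mitochondrial fission and calcium contact between mitochondria and the endoplasmic reticulum (ER) was followed in primary mouse hepatocytes with and without the succinate receptor gene *Sucnr1*. The genes were chosen by name (*Mfn1*, *Mfn2*, *Opa1*, *Dnm1l*, *Fis1*, *Vdac1*, *Itpr1*, *Itpr2*, *Hspa9* and *Pdzd8*), and all 10 were found among the 25184 genes of the count table. The study sequenced poly(A) RNA of hepatocytes cultured overnight from 3 *Sucnr1* fl/fl mice and 3 Hep-*Sucnr1* KO mice, all fed chow. All 6 mice carried floxed *Sucnr1* alleles, and those of the Hep-*Sucnr1* KO group also carried 1 copy of a Cre transgene driven by the *Alb* promoter, so an effect of Cre itself and an effect of the deletion cannot be told apart. The cells came from the left lateral lobe and were purified on a density gradient. The ages of the mice are not given in the sources used here. RNA of 1 mouse per genotype was extracted on day 1 and of 2 mice per genotype on day 2.

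Mitochondria fuse and divide continuously. Mitofusins 1 and 2, encoded by *Mfn1* and *Mfn2*, join outer membranes and OPA1 joins inner membranes, while the dynamin DRP1, encoded by *Dnm1l*, constricts the organelle and FIS1 sits in its outer membrane. At contacts with the ER, IP3 receptors (*Itpr1*, *Itpr2*) release calcium that enters the outer membrane through VDAC1, the chaperone GRP75 (*Hspa9*) bridges receptor and channel, and PDZD8 is an ER protein that tethers the membranes. In hepatocytes these contacts serve calcium signals of hormones, lipid exchange and the adjustment of respiration to feeding.

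Libraries held between 30504248 and 38770694 counts, and the 10 genes had between 641 and 16617 counts per library. Counting alone therefore gave a coefficient of variation of at most 3.71% for any of them at its mean count. All 10 passed the filter on low counts, as did 15105 genes in all. The targeted gene, *Sucnr1*, had 103 to 258 counts per library in the first genotype and 5 to 84 in the second. These counts cover the whole gene, of which loxP sites flank exon 2. The summed level of 8 hepatocyte markers, *Alb* and *Ttr* among them, lay between 67096 and 90974 CPM (counts relative to library size, with TMM scaling) in *Sucnr1* fl/fl and between 58604 and 93147 CPM in Hep-*Sucnr1* KO libraries. The sum of 10 Kupffer cell markers lay between 52.8 and 167 CPM and between 36.5 and 133 CPM, and 0 of these 10 markers were at 0 in any library. All 10 Kupffer cell markers had a log2 fold change below 0 (median -0.40), as did 7 of 8 sinusoidal endothelial markers (median -0.22), whose sum lay between 26.1 and 48.1 CPM in *Sucnr1* fl/fl and between 21.5 and 34.5 CPM in Hep-*Sucnr1* KO libraries. In the edgeR fit described below, 0 of these 10 and 0 of these 8 had an unadjusted p below 0.05 for genotype. For day 2 against day 1 the median was 2.07 for the Kupffer cell markers and -0.24 for the sinusoidal ones. An unadjusted p below 0.05 for day was reached by 6 of the 10 and 0 of the 8, beside 7.49% of all genes. Stellate cell markers summed to 4.85 to 21.5 and 3.54 to 8.23 CPM, with 3 of 9 at 0 somewhere, and cholangiocyte markers to 350 to 512 and 426 to 650 CPM, with 1 of 6 at 0 somewhere. Of 5 stellate cell markers tested (median -0.31), 1 was lower in Hep-*Sucnr1* KO with an unadjusted edgeR p below 0.05, beside 3.73% of all genes. Of 5 cholangiocyte markers tested (median 0.06), 0 had such a p. The genotypes did not overlap for 1 of the 8 sinusoidal and 1 of the 5 stellate cell markers, beside 10.6% of all genes. The part of other cell types in the values that follow was not tested.

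A window around an annotated transcription start is shown for *Fis1* and for *Opa1* because these were the only genes of the 10 whose 2 genotypes did not overlap in CPM with TMM scaling. With library size alone the genes were *Dnm1l* and *Fis1*, and with DESeq2's size factors *Opa1*, *Dnm1l* and *Fis1*. Each window runs from 250 bases before to 50 bases after the RefSeq start in GRCm38.p6, on the plus strand. Capitals mark motif matches, searched on both strands. RefSeq gives 2 starts for *Fis1*. The window of the first, chr5:136953025-136953324, holds 1 match to CCGGAAG, the core bound by ETS factors, at bases -18 to -12 from the start. That of the second start, not printed, holds 1 match at bases 19 to 25.

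Fis1: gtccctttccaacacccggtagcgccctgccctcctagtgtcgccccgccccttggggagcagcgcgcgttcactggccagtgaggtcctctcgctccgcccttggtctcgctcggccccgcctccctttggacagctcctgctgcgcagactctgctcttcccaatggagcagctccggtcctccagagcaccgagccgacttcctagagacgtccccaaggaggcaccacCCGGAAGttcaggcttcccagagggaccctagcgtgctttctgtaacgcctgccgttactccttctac

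The *Opa1* window, chr16:29579084-29579383, holds GCGCATGCG, the core of the site of NRF1, a regulator of nuclear genes for mitochondria. It occurs once on each strand, at bases -59 to -51 and -58 to -50, and these matches overlap.

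Opa1: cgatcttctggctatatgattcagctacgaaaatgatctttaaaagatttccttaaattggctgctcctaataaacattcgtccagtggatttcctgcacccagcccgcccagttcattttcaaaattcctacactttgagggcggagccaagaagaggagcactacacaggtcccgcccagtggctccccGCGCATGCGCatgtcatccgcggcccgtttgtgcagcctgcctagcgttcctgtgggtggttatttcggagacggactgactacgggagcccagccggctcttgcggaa

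In all, 13 windows were found for 8 of the 10 genes, with a GC content of 53.0 to 80.3% (median 65.0%), above the median of 52.7% over all 32851 windows of this length. CCGGAAG was present in 5 of the 13 (1 each for *Mfn1*, *Dnm1l* and *Vdac1*, and both for *Fis1*) and in 8.86% of all windows, a comparison not matched on GC content. The NRF1 core was present in 1 of the 13, that of *Opa1*, and in 1.75% of all windows. TGACGTCA, the cyclic AMP response element, was present in 1, that of *Pdzd8*, and in 1.79% of all windows. The site of the estrogen-related receptors (TCAAGGTCA) and CACGTG, an E-box, were found in 0 of the 13, against 0.423% and 7.15% of all windows. These matches are letters in a window and say nothing of binding.

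The 10 genes spanned a wide range of abundance. Levels of different genes were compared as CPM per kilobase (kb) of the union of annotated exons. *Hspa9* was the most abundant, at 99.8 ± 1.77 CPM per kb (SD, n = 6 libraries), followed by *Vdac1* at 59.3 ± 9.11 and *Fis1* at 16.7 ± 1.80 CPM per kb. The dynamin gene *Dnm1l* stood at 8.69 ± 0.40, *Mfn2* at 8.07 ± 1.42, *Pdzd8* at 5.86 ± 0.78, *Opa1* at 5.83 ± 0.22 and *Mfn1* at 4.24 ± 0.19 CPM per kb. The IP3 receptor genes were lowest, with *Itpr1* at 1.77 ± 0.20 and *Itpr2* at 1.47 ± 0.21 CPM per kb. Of the 9 neighbouring pairs in this order, 6 kept their order in every library, and 3 did not differ beyond their spread. *Dnm1l* was above *Mfn2* in 4 of 6 libraries, *Pdzd8* above *Opa1* in 3 and *Itpr1* above *Itpr2* in 5. With the length of the longest transcript in place of the exon union, *Opa1* stood ahead of *Pdzd8*, at means of 7.37 and 5.86 CPM per kb. *Itpr1* and *Itpr2* then stood further apart, at means of 3.28 and 1.87 CPM per kb. The counts of libraries above hold for the exon union alone, and whether these pairs interleave depends on the length used.

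**Figure D1:**
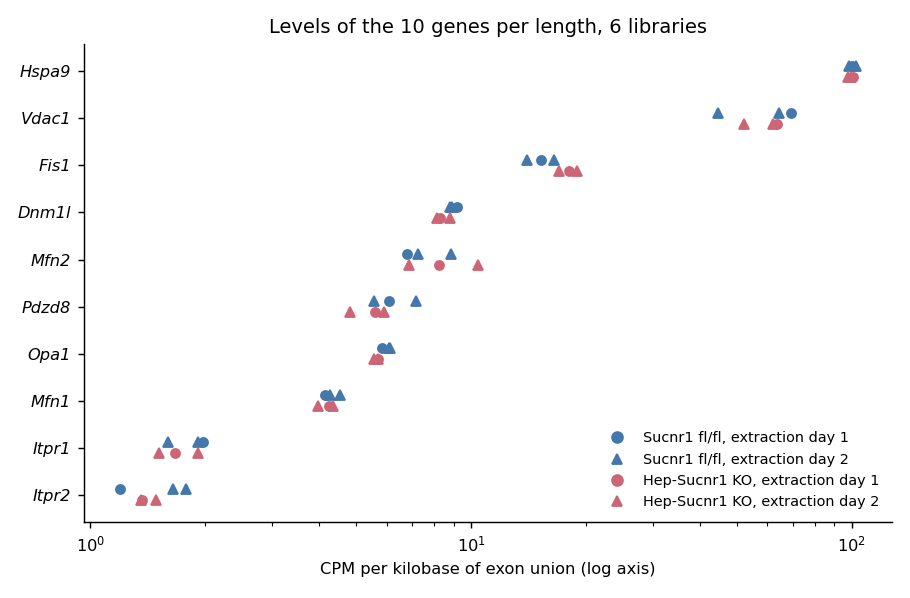
Levels of the 10 genes in CPM per kilobase of exon union on a log axis, ordered by their mean, with 1 point per library (colour: genotype, circle: extraction day 1, triangle: extraction day 2). *Hspa9* and *Vdac1* stand above the rest, and the pairs *Dnm1l* and *Mfn2*, *Pdzd8* and *Opa1*, and *Itpr1* and *Itpr2* interleave.

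Within families, 1 gene or 2 carried most of the transcript level per length of exon union. These shares depend on the length used and were not computed with the longest transcript. The union and the longest transcript have 4769 and 2039 bases for *Vdac2*, and 2620 and 2022 bases for *Vdac1*. *Mfn2* made up between 62.1 and 70.7% of the 2 mitofusins over the 6 libraries. Of the 3 IP3 receptor genes, *Itpr1* made up between 47.0 and 60.4%, *Itpr2* between 36.6 and 48.4% and *Itpr3*, which was not among the 10, between 1.68 and 4.61%. Among the voltage-dependent anion channels of the outer membrane, *Vdac1* made up between 64.1 and 73.7%, ahead of *Vdac2* at 13.9 to 17.9% and *Vdac3* at 12.3 to 17.95%. The mean shares of *Itpr1* in the genotypes, 52.8 ± 6.86% and 52.7 ± 2.04% (SD, n = 3), and of *Vdac1*, 69.5 ± 4.90% and 69.3 ± 1.87% (SD, n = 3), differed by less than the spread between mice.

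Whether deletion of *Sucnr1* moved these genes was asked by quasi-likelihood in edgeR, with terms for extraction day and genotype and a fit over all genes. In these bulk libraries, fewer cells of a type and less RNA per cell cannot be told apart. By edgeR 0 of the 10 genes had an FDR (Benjamini-Hochberg adjusted p) below 0.05, and 0 had an unadjusted p below 0.05. Over all genes tested these shares were 0% and 3.73%, and the lowest FDR was 0.998. *Sucnr1* itself, at a log2 fold change of -2.23, had an unadjusted p below 0.05 in this edgeR fit but not an FDR below 0.05. An FDR of 0.998 therefore does not by itself show that a gene was unchanged. When DESeq2 was used, 0 of the 10 had an adjusted and 0 an unadjusted p below 0.05, against 0.0463% and 2.88% of all genes. *Fis1* and *Mfn2* had the largest positive log2 fold changes, taken as Hep-*Sucnr1* KO over *Sucnr1* fl/fl, and *Pdzd8* the largest negative one. The median log2 fold change over the 10 was -0.07, with 3 above and 7 below 0, beside a median of 0.003 over all genes, of which 50.5% were above 0. All 10 intervals of 95% lay inside a 2-fold change in either direction, the lowest bound being 0.686-fold (*Pdzd8*) and the highest 1.504-fold (*Mfn2*).

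**Figure D2:**
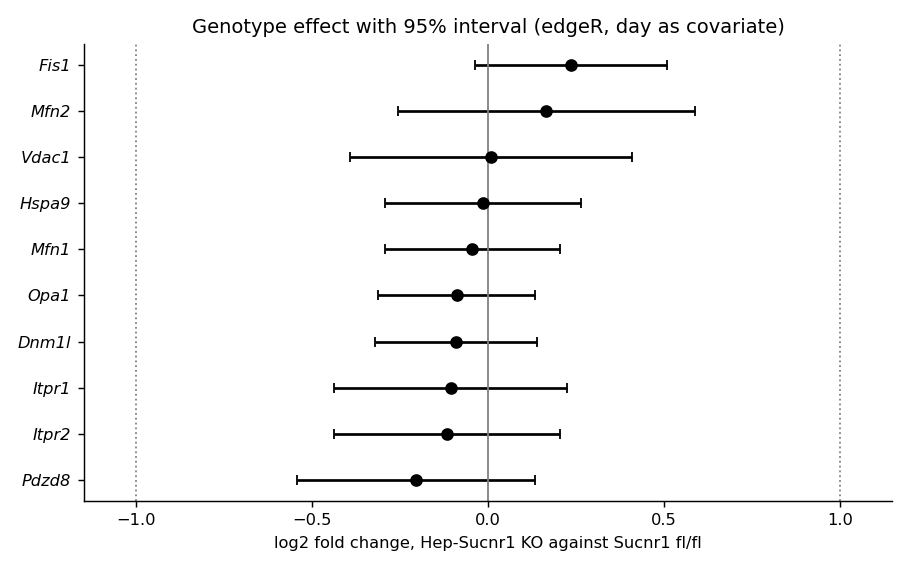
Genotype effect on each gene as a log2 fold change, Hep-*Sucnr1* KO over *Sucnr1* fl/fl (point), with its 95% interval (bar) from edgeR, and dotted lines at -1 and 1. Every interval spans 0, and *Fis1*, with an interval from -0.04 to 0.51, is the gene whose interval reaches least far to the other side.

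Of the fission genes, *Fis1* had a log2 fold change above 0 and *Dnm1l* one below 0, neither past the test. Values per library are given in the order of replicates 1, 2 and 3 for *Sucnr1* fl/fl and of replicates 3, 4 and 5 for Hep-*Sucnr1* KO. *Fis1*, on chromosome 5 from 136953275 to 136966234 (GRCm38), measured 26.3, 24.1 and 28.4 CPM in *Sucnr1* fl/fl and 31.0, 32.5 and 29.2 CPM in Hep-*Sucnr1* KO libraries. Every Hep-*Sucnr1* KO library was above every *Sucnr1* fl/fl library, and the means were 26.2 ± 2.16 and 30.9 ± 1.67 CPM (SD, n = 3 mice, p = 0.1 by a two-sided exact permutation test, which is the smallest p that 3 against 3 allows). By edgeR the log2 fold change of *Fis1* came to 0.24 ± 0.115 (standard error), at an FDR of 0.998 (unadjusted p 0.079). It was above 0 in every fit tried, and 0.10 with the series of library index names as a further term. These series are a split made here by the number in each index name, not a batch given by the labels. The log2 difference was 0.24 between the libraries of day 1 and 0.23 between the means of day 2. *Dnm1l*, on chromosome 16 from 16312230 to 16358959, measured 47.7, 45.9 and 46.4 CPM in *Sucnr1* fl/fl and 43.2, 42.2 and 45.9 CPM in Hep-*Sucnr1* KO libraries. Hep-*Sucnr1* KO replicate 5 reached the lowest *Sucnr1* fl/fl library, and the other two were lower. The means were 46.7 ± 0.92 and 43.8 ± 1.90 CPM (SD, n = 3 each, exact permutation p = 0.2), and the log2 fold change of *Dnm1l* was -0.09 (standard error 0.097, FDR 0.998).

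Of the fusion genes, *Opa1* varied least between mice and *Mfn2* most. *Opa1*, on chromosome 16 from 29579334 to 29654884, measured 46.1, 47.9 and 48.1 CPM in *Sucnr1* fl/fl and 44.9, 44.8 and 43.9 CPM in Hep-*Sucnr1* KO libraries. The genotypes did not overlap, with means of 47.4 ± 1.14 and 44.5 ± 0.54 CPM (SD, n = 3 each, two-sided exact permutation p = 0.1). The coefficients of variation, 2.40 and 1.22%, were below the 2.55% that counting alone gives at its mean count. By edgeR the log2 fold change of *Opa1* came to -0.09 ± 0.094 (standard error, FDR 0.998). With counts scaled to the library total alone the genotypes of *Opa1* overlapped and those of *Dnm1l* did not. Read counts per gene do not separate the splice forms of *Opa1*.

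*Mfn2*, on chromosome 4 from 147873599 to 147904704, measured 35.2, 46.0 and 37.6 CPM in *Sucnr1* fl/fl and 42.9, 54.3 and 35.7 CPM in Hep-*Sucnr1* KO libraries. Hep-*Sucnr1* KO replicate 4 was the highest of the 6, and replicate 5 lay within the *Sucnr1* fl/fl range. The log2 fold change by edgeR, 0.17 ± 0.178 (standard error, FDR 0.998), rested on single libraries. It was -0.0046 without Hep-*Sucnr1* KO replicate 4 and 0.34 (edgeR, FDR 0.893, unadjusted p 0.0486) without Hep-*Sucnr1* KO replicate 5. *Mfn1*, on chromosome 3 from 32529465 to 32579239, stayed between 24.3 and 27.8 CPM in all 6 libraries, with overlapping genotypes and a log2 fold change of -0.05 (standard error 0.105, edgeR FDR 0.998).

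The ER side of the contacts was represented by *Pdzd8*, *Itpr1* and *Itpr2*. *Pdzd8*, on chromosome 19 from 59297178 to 59345780, measured 36.4, 42.9 and 33.3 CPM in *Sucnr1* fl/fl and 33.5, 35.3 and 28.8 CPM in Hep-*Sucnr1* KO libraries. *Sucnr1* fl/fl replicate 2 was the highest and Hep-*Sucnr1* KO replicate 5 the lowest, and the genotypes overlapped (37.5 ± 4.93 and 32.5 ± 3.36 CPM, SD, n = 3 each, exact permutation p = 0.3). By edgeR *Pdzd8* differed by -0.21 ± 0.142 (standard error) on the log2 scale, at an FDR of 0.998. This was -0.08 without *Sucnr1* fl/fl replicate 2 and -0.009 with the index series term. A processed pseudogene of a ribosomal protein, *Rps12-ps3*, lies on the opposite strand of *Pdzd8* and had between 70 and 97 counts per library, beside 949 to 1427 for *Pdzd8*, and the counting used strand.

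*Itpr1*, on chromosome 6 from 108213096 to 108551109, measured 36.3, 35.2 and 29.3 CPM in *Sucnr1* fl/fl and 30.6, 35.1 and 27.8 CPM in Hep-*Sucnr1* KO libraries. *Itpr2*, on the same chromosome from 146108299 to 146502223, measured 17.8, 26.3 and 24.4 CPM and 20.3, 22.0 and 20.1 CPM in the same order. Both pairs of genotypes overlapped, and *Sucnr1* fl/fl replicate 1 was the highest library for *Itpr1* and the lowest for *Itpr2*. The log2 fold changes were -0.11 (standard error 0.139) for *Itpr1* and -0.12 (standard error 0.135) for *Itpr2*, each at an FDR of 0.998 in edgeR. Both depended on single libraries, and were -0.04 each when Hep-*Sucnr1* KO replicate 5 was left out. *Itpr1* reached -0.23 without replicate 4 of that genotype, and *Itpr2* reached -0.28 without replicate 3. With the index series term that of *Itpr1* was 0.091, on the other side of 0.

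*Vdac1*, on chromosome 11 from 52360860 to 52389397, measured 181, 117 and 169 CPM in *Sucnr1* fl/fl and 167, 137 and 163 CPM in Hep-*Sucnr1* KO libraries. Its highest library was 1.55 times its lowest, the largest ratio among the 10 genes, and both extremes were *Sucnr1* fl/fl mice. The means were 155 ± 34.1 and 156 ± 16.3 CPM (SD, n = 3 each). *Hspa9*, on chromosome 18 from 34937414 to 34954357, was the steadiest, between 420 and 441 CPM, with a ratio of 1.05 between its highest and lowest library. Their log2 fold changes were 0.01 (standard error 0.169) for *Vdac1* and -0.01 (standard error 0.117) for *Hspa9*, each at an FDR of 0.998 in edgeR. For *Vdac1* the sign depended on the scaling, with -0.013 for library size alone.

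**Figure D3:**
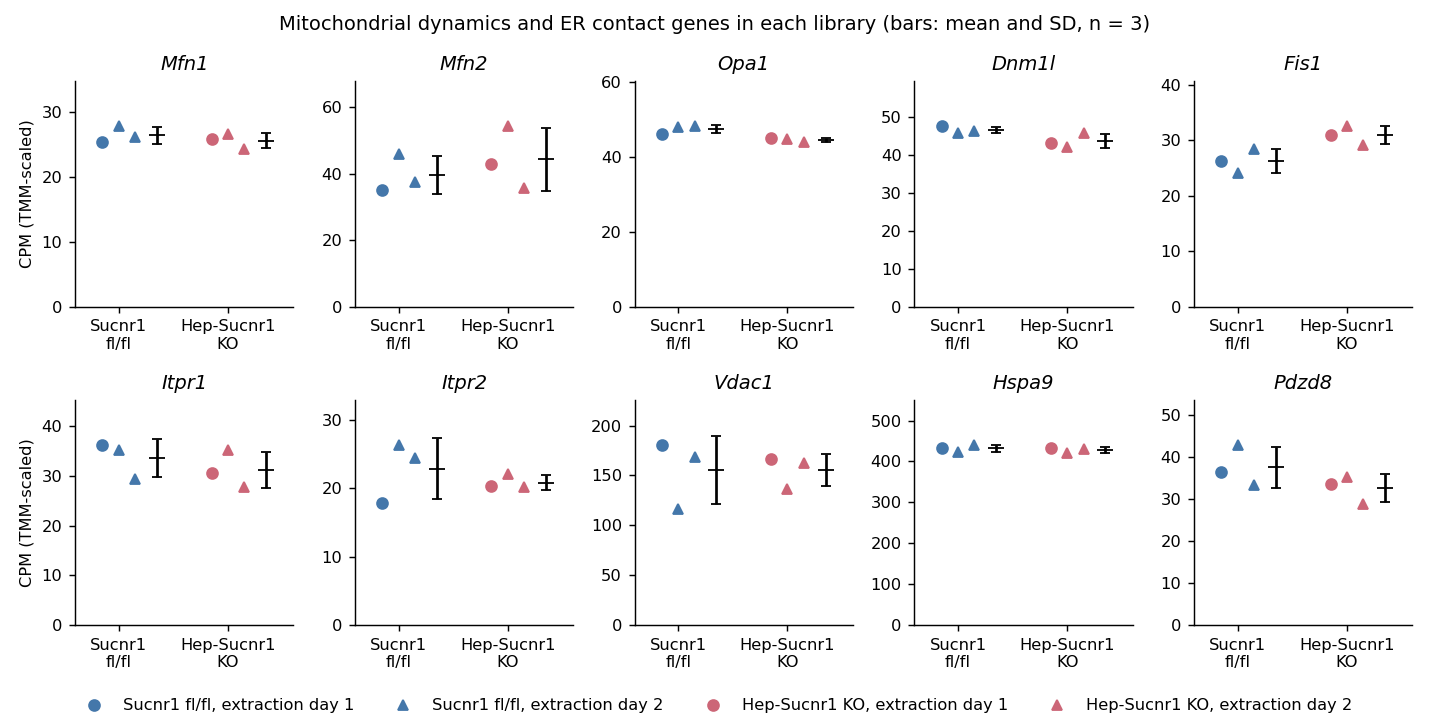
CPM of each of the 10 genes in each library (axes from 0, blue: *Sucnr1* fl/fl, red: Hep-*Sucnr1* KO, circle: extraction day 1, triangle: extraction day 2), with the mean and SD of 3 mice beside the points. The genotypes separate for *Fis1* and for *Opa1*, the latter by a narrow margin between 44.9 and 46.1 CPM, and overlap for the other 8 genes.

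In all, the genotypes did not overlap for 2 of the 10 genes, beside 10.6% of all genes tested. Of these, *Fis1* was higher and *Opa1* lower in Hep-*Sucnr1* KO hepatocytes, beside 6.54 and 4.04% of all genes. With DESeq2's size factors the count was 3, *Dnm1l* being added. The spread between mice, as edgeR's biological coefficient of variation, was between 0.115 and 0.172 for the 10 genes, with a median of 0.138 beside 0.191 over all genes.

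Ratios of genes within a library do not depend on the scaling of the library. The log2 ratio of *Fis1* to *Dnm1l* counts was -0.86, -0.93 and -0.71 in *Sucnr1* fl/fl and -0.48, -0.38 and -0.65 in Hep-*Sucnr1* KO libraries. Every Hep-*Sucnr1* KO library was above every *Sucnr1* fl/fl library. The means were -0.83 ± 0.11 and -0.50 ± 0.14 (SD, n = 3 each), a difference of 0.33 with a two-sided exact permutation p of 0.1, and 0.6 after adjustment over the 6 ratios compared. The difference was 0.38 on day 1 and 0.30 on day 2, and between 0.27 and 0.40 with each library left out. This ratio is not independent of the *Fis1* values above. The share without overlap over other pairs of genes was not computed.

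The other 5 ratios overlapped between the genotypes. The log2 ratio of *Mfn1* to *Mfn2* was -0.58 ± 0.13 in *Sucnr1* fl/fl libraries, against -0.77 ± 0.24 in Hep-*Sucnr1* KO (SD, n = 3 each, exact permutation p = 0.2, adjusted 0.6). *Mfn2* to *Dnm1l* was at -0.25 ± 0.23 and -0.004 ± 0.363 (SD, n = 3 each, exact p = 0.5). Without Hep-*Sucnr1* KO replicate 4 these differences, -0.20 and 0.24, were -0.065 and 0.059, and without Hep-*Sucnr1* KO replicate 5 they were -0.30 and 0.42. *Opa1* to *Dnm1l*, a fusion and a fission gene of similar level, was the most constant ratio, at 0.02 ± 0.06 and 0.02 ± 0.08 (SD, n = 3 each, exact p = 0.9). *Itpr1* to *Itpr2* was at 0.57 ± 0.41 and 0.58 ± 0.10 (SD, n = 3 each, exact p = 1), with *Sucnr1* fl/fl replicate 1 at 1.03 as the highest library. *Vdac1* to *Hspa9* was at -1.50 ± 0.32 and -1.47 ± 0.13 (SD, n = 3 each, exact p = 0.9), with *Sucnr1* fl/fl replicate 2 at -1.86 as the lowest.

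**Figure D4:**
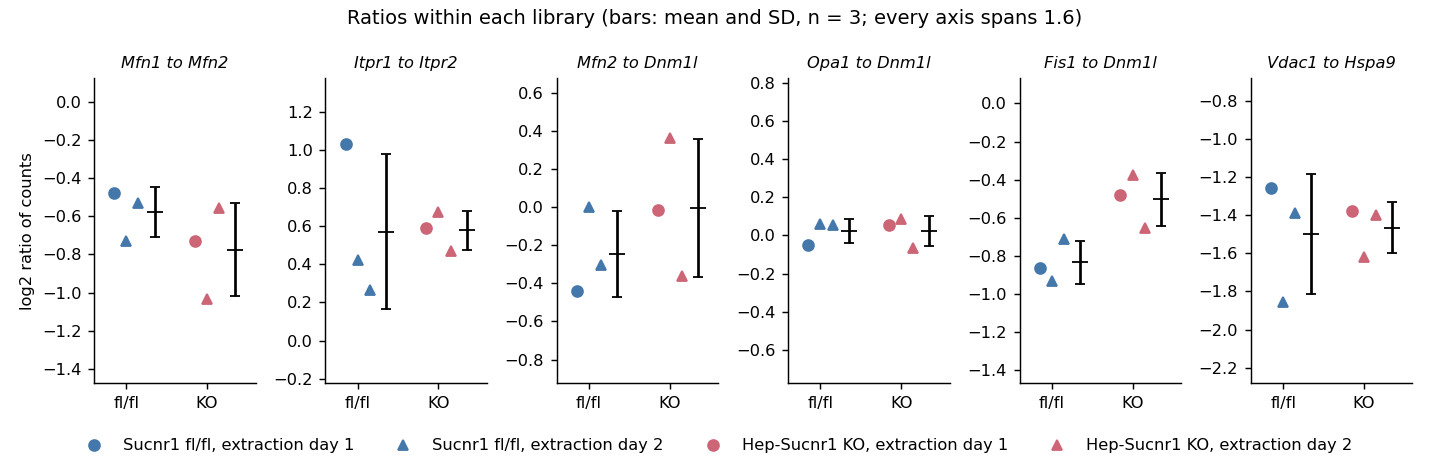
Log2 ratio of counts of 6 pairs of genes in each library (blue: *Sucnr1* fl/fl, red: Hep-*Sucnr1* KO, circle: extraction day 1, triangle: extraction day 2), with the mean and SD of 3 mice. Axes span the same range and do not start at 0. *Fis1* to *Dnm1l* is the 1 ratio without overlap, and *Opa1* to *Dnm1l* lies between -0.06 and 0.08 in all libraries.

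Extraction day was examined for the same genes. In edgeR's fit 0 of the 10 had an FDR below 0.05 for day 2 against day 1, and 0 an unadjusted p below 0.05, beside 0% and 7.49% of all genes. For 0 of the 10 were the days without overlap, beside 14.8% of all genes. *Itpr2* came nearest, at 0.28 on the log2 scale (standard error 0.145, FDR 0.784 and unadjusted p 0.096 in edgeR), followed by *Vdac1* at -0.25 (standard error 0.177). For the interaction of genotype and day, 0 of the 10 had an unadjusted p below 0.05 in edgeR, beside 3.69% of all genes. *Itpr2* again had the lowest, 0.115, with log2 differences of 0.19 on day 1 and -0.27 on day 2.

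Across libraries the 10 genes were correlated in both directions. After subtraction of the mean of each day, 23 of their 45 pairs had a positive Pearson correlation of log2 CPM over the 6 libraries, with a median of 0.07. The highest were *Mfn1* with *Pdzd8* (0.91) and with *Itpr2* (0.85), and *Itpr1* with *Pdzd8* (0.83). The lowest were *Dnm1l* with *Mfn2* (-0.83) and *Vdac1* with *Pdzd8* and with *Mfn1* (-0.82 each). Among the other 9 genes and the listed genes of related pathways, the profile most like that of *Mfn2* was *Pink1* (0.99), that of *Vdac1* was *Bnip3* (0.99), that of *Dnm1l* was *Ppargc1a* (0.99), that of *Fis1* was *Pemt* (0.98) and that of *Opa1* was *Gabpa* (0.87). The most alike profile was *Tfb2m* for *Pdzd8* (1.00) and for *Mfn1* (0.93), *Polg* for *Itpr1* (0.98), *Mief1* for *Itpr2* (0.97) and *Bcl2l1* for *Hspa9* (0.98). Each most alike profile is the highest value among the other 9 genes and 103 listed genes, so it was selected to be high. Genotype was not subtracted, and after subtraction of day means the 2 libraries of day 1 mirror each other. All points share the 6 libraries and their scaling, and such values over 6 libraries are descriptions only.

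Other genes of fusion, fission, cristae and ER contact were examined in lists, chosen with earlier results of these data known. Of 9 tested genes of fusion and inner membrane processing, which include the OPA1 proteases *Oma1* and *Yme1l1*, 0 had an unadjusted p below 0.05. A log2 fold change above 0 was found for 8 (median 0.05), beside 50.5% of all genes. *Phb*, for the scaffold protein prohibitin, had the largest at 0.15 (82.2 ± 5.21 and 91.0 ± 2.28 CPM, SD, n = 3 each), and *Afg3l2*, for an inner membrane protease, was the 1 below 0, at -0.12. The genotypes did not overlap for 2 of the 9, *Phb* and *Stoml2*, beside 10.6% of all genes. The number above 0 was 5 of 9 without Hep-*Sucnr1* KO replicate 4 and with the index series term, and 6 of 9 with library size alone. Of 12 fission adaptors and regulators 0 passed an unadjusted p of 0.05, 5 were above 0, and the median was -0.02. Both depended on single libraries, with 8 above 0 (median 0.03) without *Sucnr1* fl/fl replicate 2. Without Hep-*Sucnr1* KO replicate 5 the number above 0 was 7 (median 0.05). In that fit 1 of the 12 had an unadjusted p below 0.05 in edgeR, beside 832 of 15064 genes tested. *Mff*, for the main DRP1 receptor, measured 17.0 ± 1.34 and 16.5 ± 0.94 CPM (SD, n = 3 each). *Mief2*, for another DRP1 receptor, had the largest value at 0.13, and *Spire1*, for an actin nucleator, the lowest at -0.40 (standard error 0.387).

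Of the 9 genes of cristae organisation, 9 had a log2 fold change above 0, with a median of 0.10, where 50.5% of all genes were above 0. By edgeR 0 of them had an unadjusted p below 0.05, and 0 had genotypes without overlap. The values ran from 0.05 for *Micos10* to 0.21 for *Samm50* (48.6 ± 2.48 and 56.1 ± 5.62 CPM, SD, n = 3 each), the latter for the outer membrane assembly protein that anchors cristae. Without *Sucnr1* fl/fl replicate 2 the count above 0 was 6 of 9, and 6 of 9 with the index series of the libraries as a further term.

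Of 17 genes of ER-mitochondria tethers 0 passed an unadjusted p of 0.05, 8 were above 0 and the median was -0.002, from -0.57 for *Osbpl5*, at 0.789 ± 0.327 and 0.521 ± 0.177 CPM, to 0.15 for *Fkbp8* (154 ± 9.63 and 171 ± 11.2 CPM, SD, n = 3 each). Leaving out *Sucnr1* fl/fl replicate 2 left 5 of the 17 above 0. In that fit 1 of the 17 had an unadjusted p below 0.05 in edgeR, beside 537 of 15121 genes tested. Leaving out *Sucnr1* fl/fl replicate 1, Hep-*Sucnr1* KO replicate 3 or Hep-*Sucnr1* KO replicate 4 left 10 above 0, with medians from 0.06 to 0.07. Of 22 tested genes of ER and mitochondrial calcium handling 0 passed, 12 were above 0 and the median was 0.002. With library size alone 9 were above 0 and the median was -0.03. Without Hep-*Sucnr1* KO replicate 5 an unadjusted p below 0.05 in edgeR was reached by 2 of the 22, beside 832 of 15064 genes tested. *Mcu*, for the pore of the mitochondrial calcium uniporter, measured 10.7 ± 1.71 and 10.6 ± 0.67 CPM (SD, n = 3 each). *Vdac2* and *Vdac3* had log2 fold changes of -0.002 and 0.09, and *Itpr3*, at about 1 CPM, one of 0.07. The extremes of this list were *Bcl2* at 0.52 (standard error 0.51) and *Atp2a3* at -0.45 (standard error 0.715), both below 1 CPM. Of 8 genes of lipid synthesis at these contacts 0 passed and 5 were above 0 (median 0.09), from *Soat1* at -0.27 to *Dgat2* at 0.23. Without Hep-*Sucnr1* KO replicate 4 the number above 0 was 4 and the median -0.004. Without *Sucnr1* fl/fl replicate 2 the median was 0.02, and 1 of the 8 had an unadjusted p below 0.05 in edgeR, beside 537 of 15121 genes tested.

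**Figure D5:**
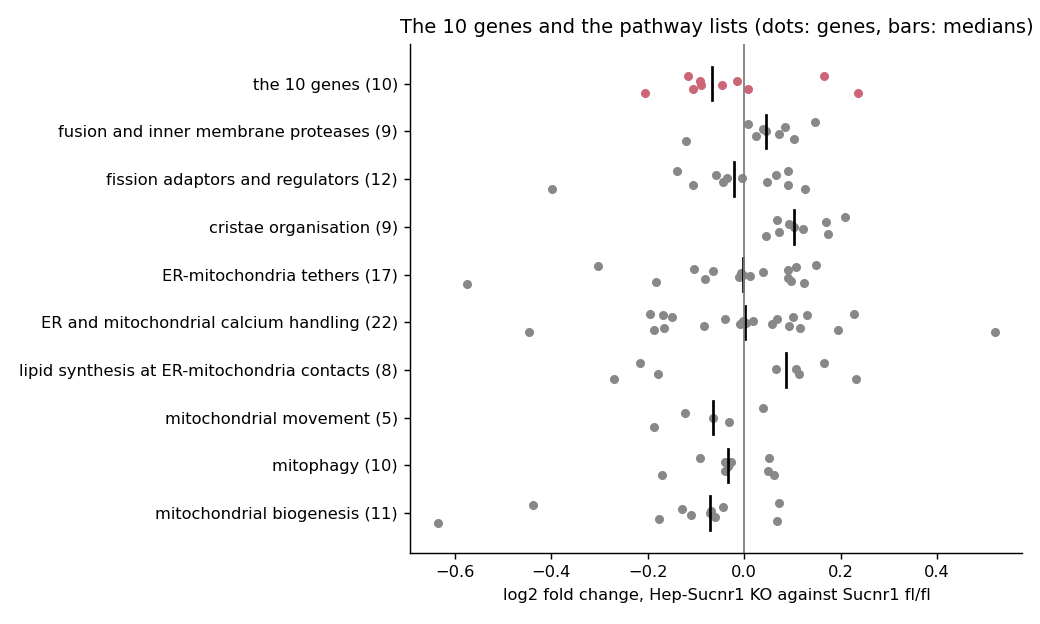
Log2 fold change (Hep-*Sucnr1* KO over *Sucnr1* fl/fl) of the tested genes of each list (dots) with the list's median (bar), the number of genes in parentheses, and the 10 genes in red. Medians lie between -0.07 and 0.10, and the lowest dot is *Ppargc1a* at -0.63.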

How the data were processed

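Poly(A) RNA of cultured primary hepatocytes of 6 mice was sequenced as stranded paired-end libraries. The authors trimmed the reads with Trim Galore 0.6.7, aligned them to GRCm38 with STAR 2.7.10a, counted read pairs per Ensembl gene by strand with featureCounts, and deposited these raw counts without normalization. The treatment of multi-mapping reads is not given in the sources used here, so reads of pseudogene copies are uncertain. Symbols came from GENCODE M21 (25096 identifiers matched, 88 did not), as did coordinates and exon lengths, and promoter windows from RefSeq.

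Genes whose mean DESeq2-normalized count exceeded 5 were kept. The counts were then scaled by TMM (edgeR 4.0.16 under R 4.3.3), and all 15105 were fitted with extraction day and genotype by quasi-likelihood. Benjamini-Hochberg adjustment covered all of them, with a threshold of 0.05. Intervals of 95% came from the same fit, and log2 CPM used a prior count of 2. Single values were compared with exact permutation tests (Python 3.11.15, SciPy 1.17.1). Unlike the edgeR fit, these tests took no account of extraction day. Alternatives were DESeq2 1.42.0 (without independent filtering), other scalings and filters, no covariate, the series of library index names as a term, day 2 alone, a robust fit and each library left out. The genes and the lists were chosen with earlier results of these data known. The genes named are the 10, the extremes of each pathway list, pathway genes with an unadjusted p below 0.05, close relatives and the most alike profiles.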

Additional observations from a re-analysis of the deposited data

How the results depend on the processing

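With edgeR under 8 other settings, with DESeq2 and in the 6 fits that each left out 1 library, 0 of the 10 genes had an FDR below 0.05. The number with an unadjusted p below 0.05 was between 0 and 1 when single libraries were left out, the 1 being *Mfn2* without Hep-*Sucnr1* KO replicate 5, and was 0 under the other settings. Without Hep-*Sucnr1* KO replicate 5, 832 of 15064 genes tested had an unadjusted p below 0.05 in edgeR, beside 563 of 15105 with all libraries. The median log2 fold change of the 10 lay between -0.10 and -0.03 throughout. *Fis1*, *Opa1*, *Dnm1l*, *Itpr2* and *Pdzd8* kept their direction in every fit, *Fis1* between 0.10 (index series term) and 0.31 (without *Sucnr1* fl/fl replicate 3). Genotype and index series overlap, since 1 series holds *Sucnr1* fl/fl libraries alone. The series are a split made here by the number in the index name. The paper describes a single index set and a single pool of the libraries, so the term stands for no known batch. The cause of the changes of direction that follow was not tested.

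The log2 fold change of *Vdac1* was -0.011 with DESeq2, -0.011 with DESeq2's size factors, -0.013 with library size alone, -0.0093 with no filter and -0.24 with the index series term, and from -0.15 to 0.15 with each library left out. With the index series term that of *Itpr1* was 0.091. When single libraries were left out, *Mfn1* ranged from -0.093 to 0.0015, *Mfn2* from -0.0046 to 0.34 and *Hspa9* from -0.032 to 0.0058. Among the ratios, the difference ranged from -0.15 to 0.24 for *Itpr1* to *Itpr2*, from -0.033 to 0.047 for *Opa1* to *Dnm1l*, from -0.30 to -0.065 for *Mfn1* to *Mfn2*, from 0.059 to 0.42 for *Mfn2* to *Dnm1l* and from -0.14 to 0.16 for *Vdac1* to *Hspa9*. On day 2 alone *Opa1* to *Dnm1l* was at -0.048. The count of genes without overlap by scaling was chosen after seeing the data, and it was 2 with TMM or library size alone and 3 with DESeq2's size factors.

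No paired analysis was made, because the replicate numbers do not pair mice between the genotypes. Only number 3 is shared, and it was extracted on day 2 in *Sucnr1* fl/fl and on day 1 in Hep-*Sucnr1* KO. With 3 mice per genotype a difference of the size of that of *Fis1* was not separated from the spread between mice.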

Other observations

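Further lists describe the supply and turnover of mitochondria. Of 11 genes of mitochondrial biogenesis 9 had a log2 fold change below 0 (median -0.07), and 1 had an unadjusted p below 0.05 in edgeR, beside 3.73% of all genes tested. That gene was *Ppargc1a*, for the coactivator PGC-1alpha. It measured 4.08, 2.74 and 2.90 CPM in *Sucnr1* fl/fl and 2.09, 1.57 and 2.52 CPM in Hep-*Sucnr1* KO libraries, with no overlap between the genotypes. Its log2 fold change was -0.63 (standard error 0.259, unadjusted p 0.0445, FDR 0.998 from edgeR's quasi-likelihood test), and from -0.90 to -0.47 with each library left out, with an unadjusted p above 0.05 in 5 of those 6 fits. *Gabpa*, for an ETS factor of nuclear mitochondrial genes, was also without overlap, at 37.9 ± 1.71 and 34.7 ± 1.20 CPM (SD, n = 3 each), with a log2 fold change of -0.13. These are 2 of 11 without overlap, beside 10.6% of all genes. *Ppargc1b* was at -0.44 (standard error 0.239) with overlapping genotypes, and *Tfb1m* had the largest positive value of the list at 0.07. With *Sucnr1* fl/fl replicate 2 left out 7 of the 11 were below 0, and likewise with Hep-*Sucnr1* KO replicate 5 left out.

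Of 10 mitophagy genes 0 passed an unadjusted p of 0.05 and 7 were below 0, from *Bcl2l13* at -0.17 to *Pink1* at 0.06 (78.8 ± 9.71 and 82.1 ± 12.04 CPM, SD, n = 3 each). The direction of this list depended on single libraries. Without *Sucnr1* fl/fl replicate 3 the number below 0 was 3 of 10 (median 0.03), and it was 5 of 10 without *Sucnr1* fl/fl replicate 1, without Hep-*Sucnr1* KO replicate 3 and with the index series term. Of 5 genes of mitochondrial movement 0 passed and 4 were below 0, from *Trak2* at -0.19 to *Rhot2* at 0.04. With the index series term 2 of the 5 were below 0. Without *Sucnr1* fl/fl replicate 3 an unadjusted p below 0.05 in edgeR was reached by 1 of the 5, beside 486 of 15112 genes tested. Over all the lists, 103 of 110 genes were tested and 5 had genotypes without overlap, 4.85% of them, beside 10.6% of all genes. Beside *Ppargc1a*, *Gabpa* and *Phb*, these were *Stoml2* and *Smdt1*, both higher in Hep-*Sucnr1* KO and named after their values were seen, with log2 fold changes of 0.10 and 0.19.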
